A study of Mus musculus with 4 samples.

Results

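Insulin-like growth factor (IGF) and insulin signalling was examined through 9 genes chosen by symbol: the ligand gene Igf1, the receptor genes Igf1r, Insr and Igf2r, the adaptor genes Irs1 and Irs2, the inhibitor gene Grb10 and the binding protein genes Igfbp4 and Igfbp7. All 9 were measured, out of 19938 genes on the array. Total RNA came from whole bone marrow of C57BL/6 mice with leukemia, labelled either wild type or Hes1 null. Both groups carried MLL-AF9, a fusion of MLL with AF9 that drives acute myeloid leukemia, so the controls are MLL-AF9/Hes1+/+ and the other group is MLL-AF9/Hes1-/-. There were 2 arrays per genotype, and the comparison addresses the part played by Hes1, a transcriptional repressor induced by Notch signalling, in this leukemia. The age of the mice, the way MLL-AF9 and the Hes1 deletion were introduced and whether each sample is 1 animal or 1 leukemic clone are details not given in the sources used here. Therefore p-values measure the spread between these samples, which may be partly technical.

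IGF1 and IGF2 act mainly through the IGF1 receptor and insulin through the insulin receptor, a closely related pair of receptor tyrosine kinases. Both phosphorylate IRS adaptor proteins, which recruit PI3K and switch on AKT, and active AKT keeps FOXO transcription factors out of the nucleus. In marrow, IGF1 is known as a survival and growth factor for myeloid and lymphoid cells, made by macrophages and stromal cells among others, while secreted IGF-binding proteins hold it in the extracellular fluid.

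Levels are log2 of the deposited intensities. Differences are signed as the Hes1-null mean less the wild-type mean, on the log2 scale, and follow with ± their standard error (SE; 2 arrays in each genotype, n = 2). Array medians were close, from 65.0 to 67.3 in linear intensity. The wild-type arrays were more alike than the Hes1-null arrays: 109 genes differed 2-fold or more between the wild-type replicates and 683 between the Hes1-null replicates. Hes1 itself lay at 5.59 and 5.79 in wild type and at 5.43 and 5.84 in Hes1-null marrow, so its probe set did not check the genotype labels. Hes1-null replicate 2 also stood apart in Xist, the RNA of the inactive X chromosome, at 7.25 against 11.7 or more on the other arrays. Results are therefore given below also without single arrays where that moved them.

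The 9 genes did not move as a block. Igf1, Igf1r and Igfbp7 lay lower on both Hes1-null arrays, by 1.72-fold, 1.98-fold and 2.15-fold in the group means, and Irs1 and Grb10 by smaller steps of 1.23-fold and 1.25-fold. Igfbp4 lay higher on both, by 1.89-fold. Insr was nearly level between the genotypes, and Igf2r and Irs2 overlapped. None of the differences passed the test over all genes: 0 of 9 members had an adjusted p under 0.05 by limma, where 0.145% of all genes did. At an unadjusted p under 0.05 by limma there were 3 members, all lower, against 8.29% of all genes in either direction (3.51% higher and 4.78% lower). Genotypes did not overlap for 5 members that were lower and 1 that was higher, against 20.6% and 17.4% of all genes. The difference was negative for 5 of the 9 members and for 53.6% of all genes. Its median over the members was -0.30, beside -0.02 over all genes, with members ranging from -1.11 to 0.92.

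**Figure D1:**
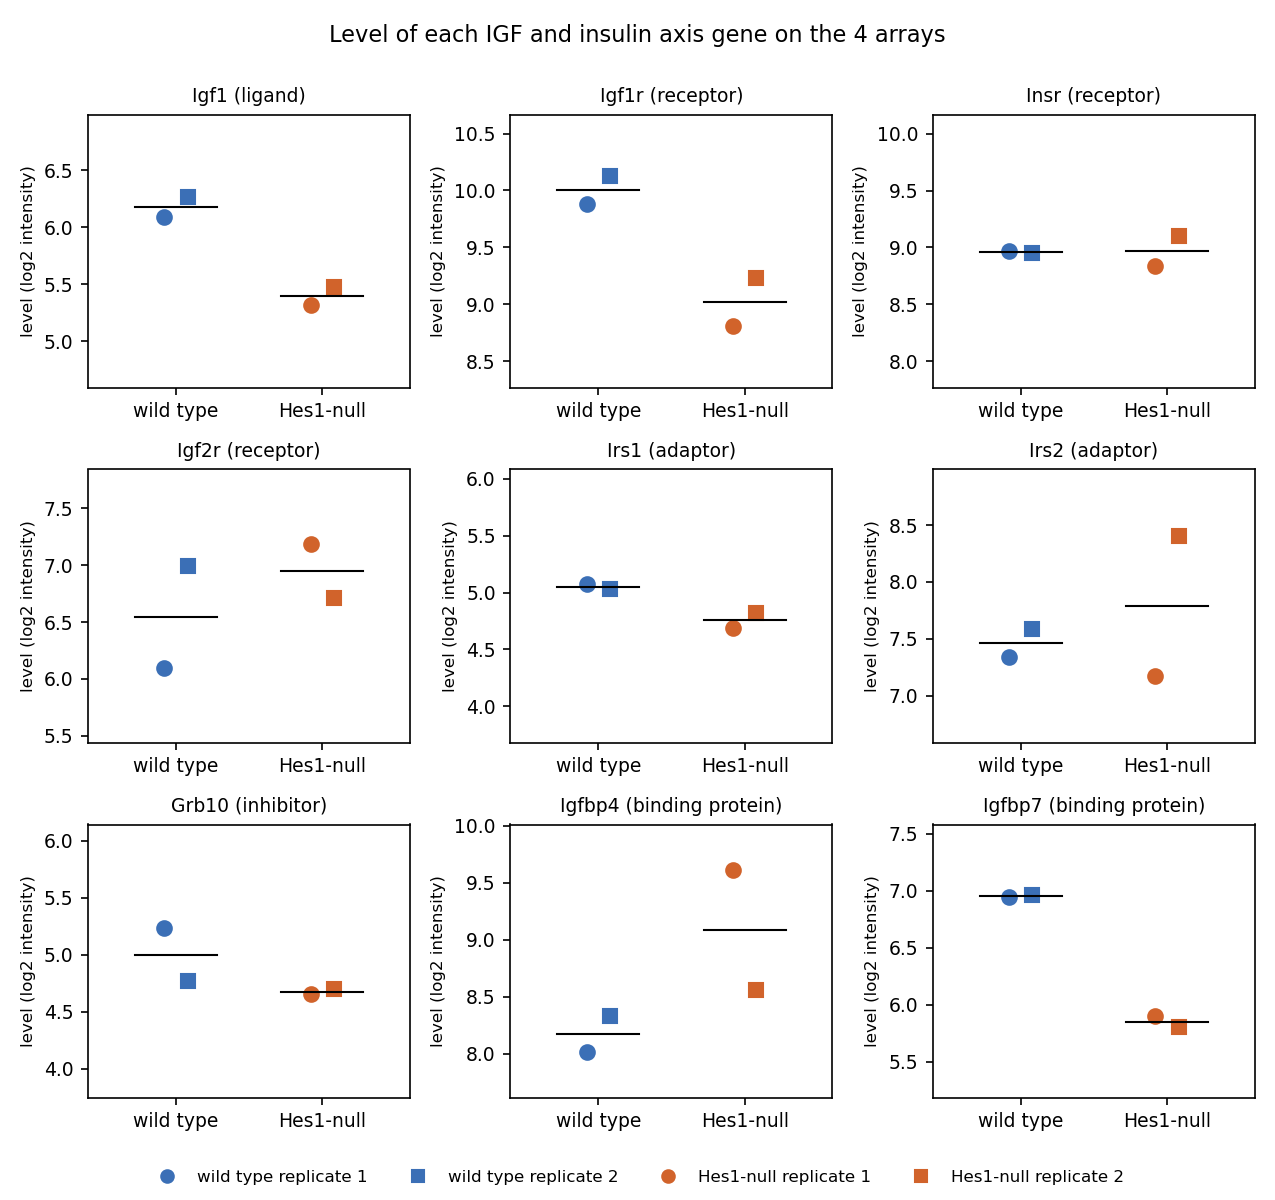
Level (log2 intensity) of each of the 9 genes on the 2 wild-type and 2 Hes1-null arrays, each panel spanning the same range of log2 units. Points are single arrays (circles replicate 1, squares replicate 2) and bars are genotype means. Igf1, Igf1r and Igfbp7 are separated downward in Hes1-null marrow, Igfbp4 is separated upward with widely spaced Hes1-null arrays, and Igf2r, Irs2 and Insr overlap.

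Igf1, which encodes the secreted growth factor, was measured by probe set 10365559. Its level was 6.09 and 6.27 in the wild-type samples, against 5.32 and 5.48 in the Hes1-null samples. Both Hes1-null arrays were below both wild-type arrays, and replicates lay 0.17 apart in wild type and 0.16 apart in Hes1-null. In linear intensity this was 68.3 and 77.0 against 39.9 and 44.6. The difference was -0.78 ± 0.14 (95% interval -1.14 to -0.42, unadjusted p = 0.00218, adjusted p = 0.197 by limma). Leaving out each array in turn moved it only between -0.87 and -0.70. The gene was fairly dim, with a mean level of 5.79 against a median of 6.36 over all genes. With 16 added to the intensities before log2, its difference was -0.61. The other ligand genes measured, Igf2 and the insulin gene Ins2, had differences of -0.12 ± 0.14 and -0.02 ± 0.20, and the genotypes overlapped for both.

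Igf1r, which encodes the tyrosine kinase receptor of IGF1 and IGF2 (probe set 10554094), lay at 9.88 and 10.12 in wild-type marrow. On the Hes1-null arrays it lay at 8.81 and 9.23. Again the genotypes were separate, and the gap between them was larger than the distance between replicates in either genotype (0.25 in wild type and 0.42 in Hes1-null). The linear intensities were 941 and 1116 in wild type and 449 and 600.1 in Hes1-null marrow. The difference was -0.98 ± 0.21 (95% interval -1.50 to -0.46, unadjusted p = 0.00424, adjusted p = 0.249 by limma). With 1 array left out it ran from -1.19 to -0.77, and the sign held in each case.

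Insr, the gene of the insulin receptor (probe set 10576692), gave no such separation. It lay at 8.97 and 8.95 in wild type, a pair that differed by 0.01, and at 8.83 and 9.10 in Hes1-null marrow, on either side of them. The difference was 0.01 ± 0.17, with a 95% interval from -0.43 to 0.45, so a change of about that size in either direction is not excluded by these arrays. A second probe set for Insr, 10576696, lay at 8.63, 8.61, 8.60 and 8.86 on wild-type replicates 1 and 2 and Hes1-null replicates 1 and 2, with a difference of 0.11 ± 0.18. Both probe sets therefore placed the insulin receptor transcript within the spread of the Hes1-null arrays. Insrr, the gene of an orphan receptor of the same family, differed by 0.08 ± 0.13.

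Since Igf1r and Insr were read on the same arrays, the change of their ratio can be followed array by array. The log2 ratio of Igf1r to Insr was 0.91 and 1.17 in wild type and -0.02 and 0.13 in Hes1-null marrow. Its mean differed by -0.99 between genotypes, with SDs of 0.18 and 0.11 (n = 2 each). The absolute ratio depends on the probes and has no meaning of its own, but its shift is the difference between the changes of the 2 receptor signals. An exact two-sided permutation test of 2 arrays against 2 cannot give a p under 0.333, and no other test was run on the ratios, so they are given as values.

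Igf2r encodes the mannose 6-phosphate receptor, which takes up IGF2 for lysosomal breakdown and has no kinase. Its probe set 10447799 lay at 6.09 and 6.99 in wild type and at 7.19 and 6.71 in Hes1-null marrow. The wild-type arrays were farther apart than the genotype means: their distance of 0.90 exceeded that of 99.3% of genes. The difference was 0.41 ± 0.34 (adjusted p = 0.832 by limma), and it turned to -0.04 without wild-type replicate 1.

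The promoters of the receptor genes were read because Hes1 is a DNA-binding repressor, known to recognise N boxes (CACNAG) and class C sites (CACGCG). Windows of 300 bases, 250 before to 50 after the start of the gene, came from RefSeq (build GRCm38.p6) and matched 8 of the 9 members with 9 windows. The member without a window was Insr, so its promoter was not searched. Both strands of the other windows were searched. Among all 32851 windows of this length, 42.5% held an N box, 9.27% a class C site and 7.15% the E box CACGTG, a letter string read by several other helix-loop-helix factors. A class C site was found for Igf1r and Igf2r, and an N box for Igf2r. They are shown because these are the members with letters of either Hes1 motif, with the motif in capitals on the strand of the gene (CGCGTG and CTCGTG are the reverse complements of the class C site and of an N box):
Igf1r, class C site, chr7:67952143-67952167, plus strand: gctccacggCACGCGgcgtgctcgg
Igf2r, class C site, chr17:12769876-12769900, minus strand: ccctcgccgCGCGTGagcaaccctg
Igf2r, class C site, chr17:12769795-12769819, minus strand: tgtcccgcgCGCGTGcgatgctcat
Igf2r, N box, chr17:12769829-12769853, minus strand: tacctggcgCTCGTGcccggcccgc
The motif of Igf1r began 105 bases before the start, and those of Igf2r 185, 104 and 138 bases before it. The windows are rich in G and C, 76.0% for Igf1r and 70.7% for Igf2r against a median of 52.7% over all windows, and a match is no more than a run of letters. Of these 2 genes, Igf1r lay lower on both Hes1-null arrays and Igf2r overlapped. The windows of Igf1, Grb10, Igfbp4 and Igfbp7 held none of the 3 motifs.

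Irs2, one of the adaptor genes that carry the signal from both receptors to PI3K, gave the widest spread among the Hes1-null arrays. Its probe set 10576971 lay at 7.34 and 7.58 in wild type and at 7.18 and 8.40 in Hes1-null marrow. Hes1-null replicate 1 was thus the lowest of the 4 arrays and Hes1-null replicate 2 the highest. That gap of 1.22 was wider than the gap of 98.4% of genes between the same arrays. The difference of 0.32 ± 0.41 (adjusted p = 0.904 by limma) rested on which array was read: it was -0.29 when Hes1-null replicate 2 was left out and 0.94 when replicate 1 was.

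Irs1, the other adaptor gene, was dim. Probe set 10356084 lay at 5.07 and 5.03 in wild type and at 4.69 and 4.82 in Hes1-null marrow, with both Hes1-null arrays lower. The difference was -0.30 ± 0.12 (95% interval -0.61 to 0.02, unadjusted p = 0.0595, adjusted p = 0.614 by limma). A second probe set, 10347792, read the other way, at 3.99 and 3.87 in wild type and 4.10 and 4.14 in Hes1-null marrow (0.19 ± 0.13). Its levels lay close to 4.09, the highest level of any of 4 Y-linked genes on these arrays, which serves here as a guide to background. With the mean of both probe sets the difference of Irs1 was -0.05, so its direction is not settled.

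The promoter windows of Irs1 and Irs2 each held 1 E box of the form CACGTG, and neither held an N box or a class C site. They are shown side by side because both adaptor genes hold this motif, with the E box in capitals:
Irs1, chr1:82291539-82291563, minus strand: aggctccgtCACGTGttttgctcct
Irs2, chr8:11008958-11008982, minus strand: acgcagagtCACGTGttgttttgct
The E box began 115 bases before the start of Irs1 and 44 bases before that of Irs2. Igf2r held 2 further copies, 48 and 7 bases before its start. The log2 ratio of Irs1 to Irs2 was -2.27 and -2.55 in wild type and -2.49 and -3.58 in Hes1-null marrow, where the genotypes overlapped. A FOXO motif (TGTTTAC), present in 3.65% of all windows, was found in 0 of the 9 member windows.

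Grb10 encodes an adaptor that binds the activated IGF1 and insulin receptors and dampens their signal. It was dim as well, at 5.24 and 4.77 in wild type and 4.65 and 4.70 in Hes1-null marrow (probe set 10384398). The Hes1-null arrays were lower than both wild-type arrays, but by only a small step from wild-type replicate 2. The difference was -0.33 ± 0.19 (adjusted p = 0.735 by limma), and it was -0.09 without wild-type replicate 1 and -0.56 without wild-type replicate 2.

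Igfbp7, which encodes a secreted protein related to the IGF-binding proteins that binds IGFs weakly and is abundant in vessels and stroma, was the member farthest from 0. It lay at 6.95 and 6.97 in wild type and at 5.90 and 5.80 in Hes1-null marrow (probe set 10530841). Replicates lay within 0.02 of each other in wild type and 0.10 in Hes1-null, against a difference of -1.11 ± 0.14 between genotypes (95% interval -1.45 to -0.76). In linear intensity the gene went from 123 and 125 to 59.9 and 55.7. The unadjusted p was 0.000328 and the adjusted p 0.0862 by limma, rank 73 of 19938 genes, short of the threshold. The difference was -1.16 without Hes1-null replicate 1 and ran from -1.16 to -0.93 over all alternatives.

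Igfbp4, encoding a high-affinity IGF-binding protein that restrains IGF action until it is cleaved, lay in the other direction. It was at 8.01 and 8.33 in wild type and at 9.61 and 8.56 in Hes1-null marrow (probe set 10381096). Both Hes1-null arrays were higher, replicate 1 by far and replicate 2 by little. Linear intensities were 258 and 322 in wild type against 784 and 378. The difference was 0.92 ± 0.37 (95% interval -0.01 to 1.85, unadjusted p = 0.0519, adjusted p = 0.607 by limma). It was 0.39 when Hes1-null replicate 1 was left out and 1.44 when replicate 2 was, so its size depended on which Hes1-null array was read.

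The binding protein genes thus parted. The log2 ratio of Igfbp4 to Igfbp7 was 1.06 and 1.36 in wild type and 3.71 and 2.76 in Hes1-null marrow, a shift of 2.02 with SDs of 0.21 and 0.67 (n = 2 each). That ratio had to separate the genotypes, since both genes were already separate in opposite directions. The ratio of Igf1r to Insr also separated them, but its shift of -0.99 is nearly the difference of Igf1r alone (-0.98). That of Irs1 to Irs2 overlapped. The pairs were chosen with earlier results known, so these separations are no further result beside the single genes. Among the other binding protein genes, Igfbp5, a binding protein of bone and stroma, lay at 6.29 and 5.85 in wild type and at 5.11 and 5.27 in Hes1-null marrow. Its difference was -0.88 ± 0.19 (unadjusted p = 0.00439, adjusted p = 0.254 by limma). The remaining 5 of the list, Igfbp1, Igfbp2, Igfbp3, Igfbp6 and Igfals, had differences between -0.19 and 0.04.

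**Figure D2:**
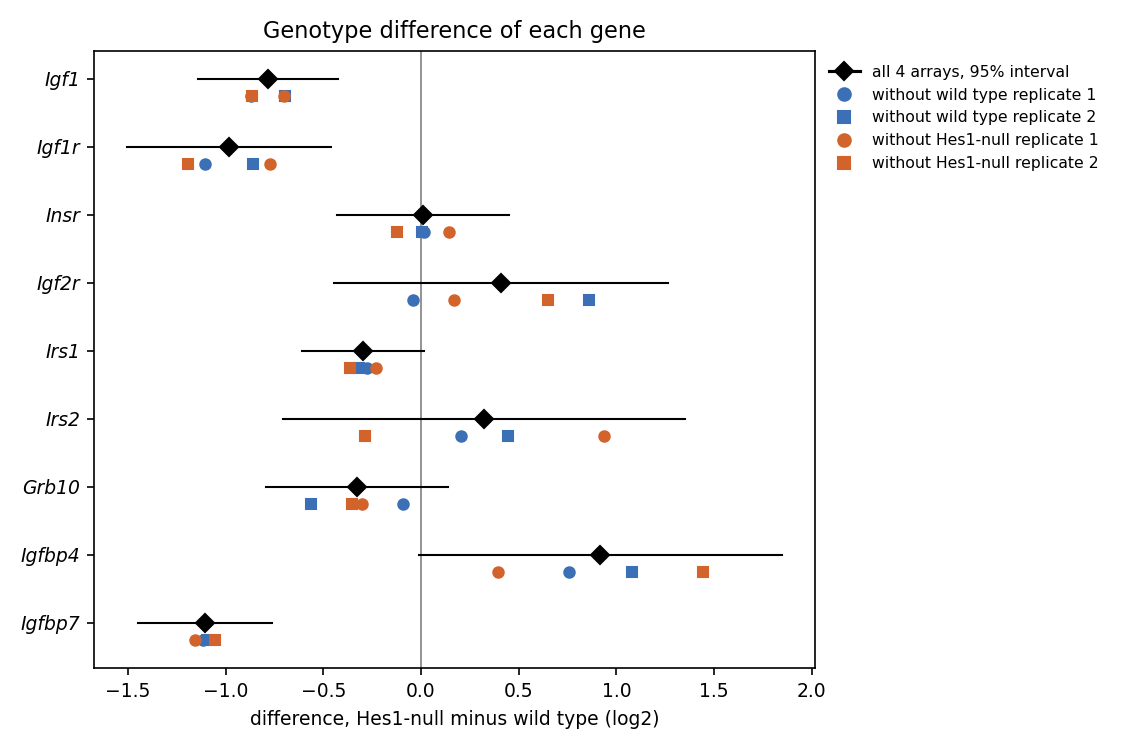
Genotype difference (Hes1-null minus wild type, log2) of each gene. Black diamonds and lines are the estimate from all 4 arrays with its 95% interval from limma, and coloured points are the estimate with 1 array left out. Igf1, Igf1r and Igfbp7 stay below 0 in every case, Igfbp4 runs from 0.39 to 1.44, and Irs2, Igf2r and Insr cross 0.

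**Figure D3:**
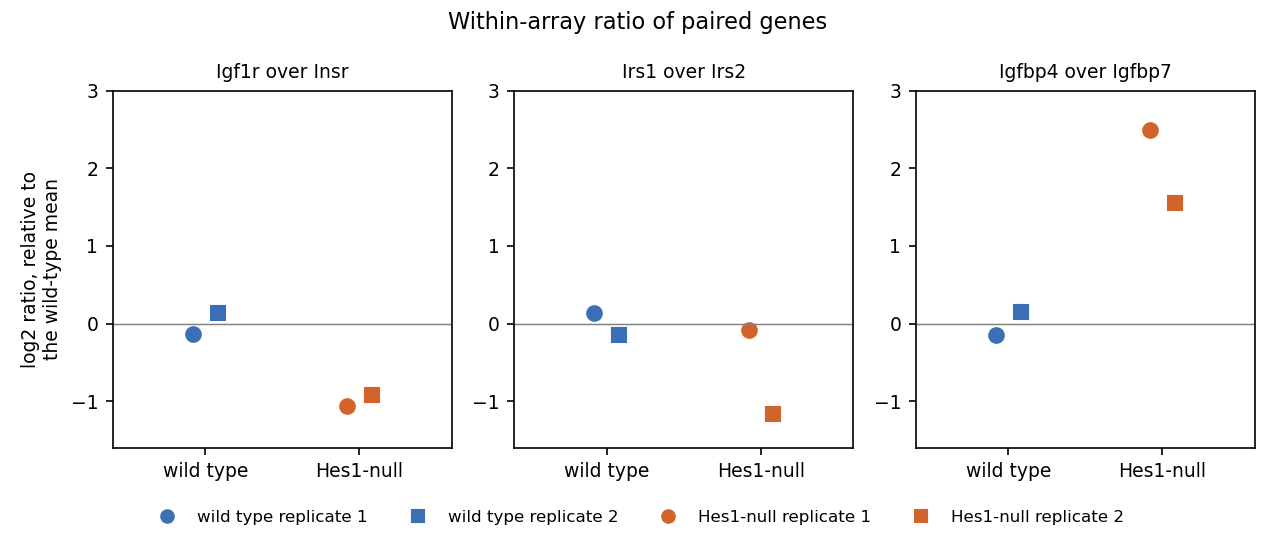
Within-array log2 ratio of 3 gene pairs, set to 0 at the wild-type mean of each pair, with 1 point per array. The ratio of Igf1r to Insr is lower by 0.99 on average in Hes1-null marrow, that of Igfbp4 to Igfbp7 is higher by 2.02, and that of Irs1 to Irs2 overlaps between genotypes.

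Further genes of the pathway were read from lists of ligands, receptors, adaptors, inhibitors, binding proteins and their proteases, PI3K and AKT components, FOXO factors with known FOXO targets, and growth hormone input. Besides the 9 members these lists name 109 genes, of which 102 were measured. Of these 102, 0 passed an adjusted p of 0.05 by limma, and 13 had an unadjusted p under 0.05, 5 higher and 8 lower, or 12.7% against 8.29% of all genes. Genotypes did not overlap for 45 of them, 26 higher and 19 lower (44.1%, against 38.0% of all genes). Their median difference was 0.03, close to that of all genes.

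At the level of the adaptors, 1 of 13 genes had an unadjusted p under 0.05 by limma (7.69%, against 8.29% of all genes). That gene was Gab1, which encodes a docking protein that binds PI3K. It lay at 6.37 and 6.36 in wild type and at 5.31 and 5.76 in Hes1-null marrow, a difference of -0.83 ± 0.19 (unadjusted p = 0.00564, adjusted p = 0.279 by limma). Its relative Gab2 overlapped between genotypes (0.35 ± 0.35). Among the 13 other receptor inhibitors and phosphatases, 0 had an unadjusted p under 0.05 by limma. The smallest belonged to Grb7, a relative of Grb10 (-0.39 ± 0.16), and to the ubiquitin ligase gene Cblb (0.49 ± 0.21). Pappa, the metalloprotease that cleaves IGFBP4 and so frees IGF, was dim and differed by -0.33 ± 0.13, and Stc2, an inhibitor of that protease, by -0.24 ± 0.14. Igf2bp1 and Igf2bp3, which encode RNA-binding proteins of the Igf2 message, differed by -0.07 ± 0.19 and 0.16 ± 0.23.

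Below the adaptors, the PI3K and AKT core was centred on 0, with a median difference of 0.01 over 22 genes. Pik3r1, the gene of the main regulatory subunit of PI3K, lay at 10.43 and 10.28 in wild type and at 10.81 and 10.94 in Hes1-null marrow (0.52 ± 0.14, unadjusted p = 0.0107 by limma). The catalytic subunit gene Pik3cb lay lower, with a difference of -0.60 ± 0.20, and Akt1 and Akt2 differed by 0.29 ± 0.14 and -0.10 ± 0.15. Of 14 genes listed as brakes, 1 had a negative difference at an unadjusted p under 0.05 by limma, against 4.78% of all genes. Whether each acts as a brake in this marrow was not tested. A positive difference at that level was found for 3, against 3.51% of all genes. These were the pseudokinase gene Trib1 (1.65 ± 0.43), the mTOR inhibitor gene Deptor (0.90 ± 0.29) and Inpp5d, which encodes the phosphatase SHIP1 of blood cells (0.53 ± 0.18). Phlpp2, a phosphatase gene of AKT, lay the other way, at 8.65 and 8.54 in wild type and 7.52 and 6.89 in Hes1-null marrow (-1.39 ± 0.25, unadjusted p = 0.00201, adjusted p = 0.187 by limma).

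The list of FOXO factors and targets was mixed, with a median difference of 0.05 over 18 genes. Klf2, a Krüppel-like factor gene under FOXO control in lymphocytes, lay at 8.94 and 9.14 in wild type and at 10.14 and 11.26 in Hes1-null marrow (1.66 ± 0.37, adjusted p = 0.279 by limma). Bcl6, Sesn1 and Pdk4, also known as FOXO targets, had negative differences of -0.66 ± 0.21, -0.58 ± 0.21 and -0.30 ± 0.12. The factor genes Foxo1 and Foxo3 differed by 0.54 ± 0.24 and 0.24 ± 0.18. In the growth hormone list of 5 measured genes, which includes Ghr and Jak2, 0 had an unadjusted p under 0.05 by limma. The smallest p values there were those of Stat5b (-0.25 ± 0.17) and its target Cish (-0.13 ± 0.15).

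**Figure D4:**
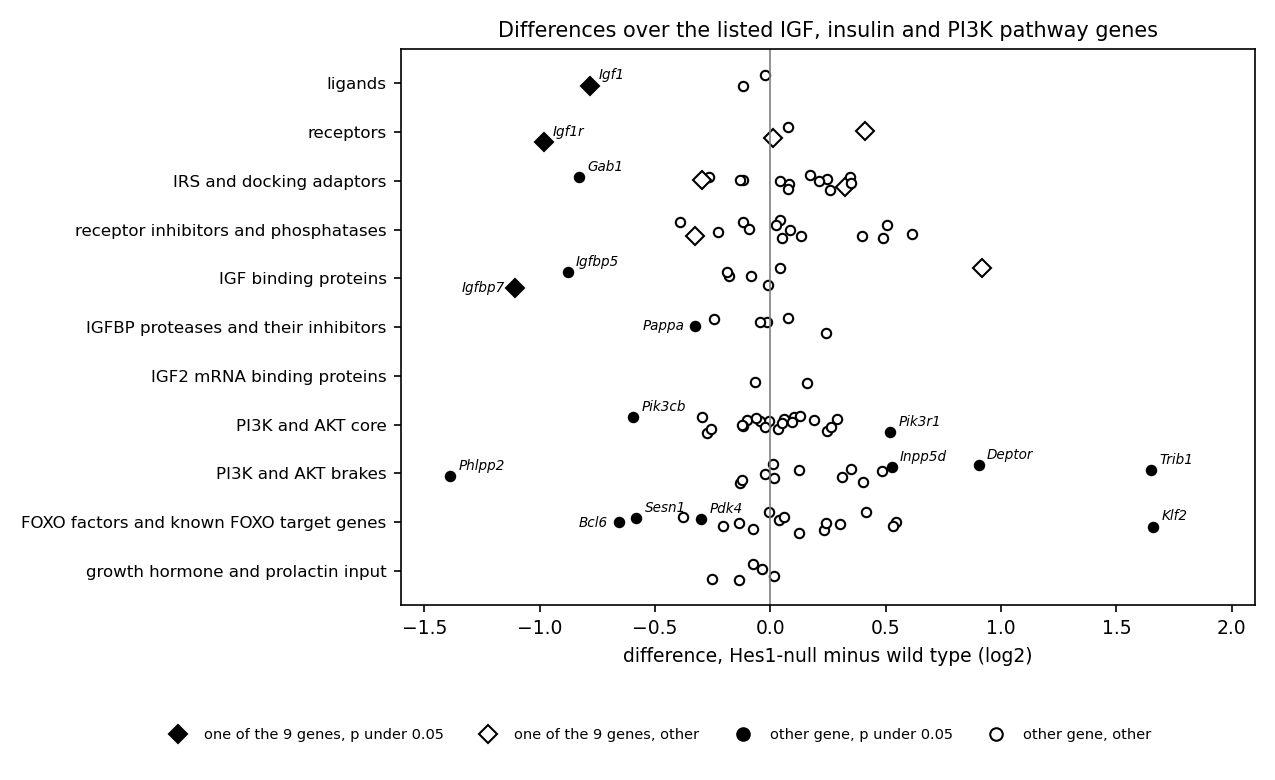
Genotype difference (Hes1-null minus wild type, log2) of every measured gene in the pathway lists, 1 row per list and 1 point per gene. Diamonds are the 9 genes, circles are the others, and filled symbols with names have an unadjusted limma p under 0.05. The named points lie on both sides of 0, from Phlpp2 at -1.39 to Klf2 at 1.66, and most genes lie near 0.

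Genes with the most similar course over the 4 arrays were sought for the 3 members that had an unadjusted p under 0.05 and separate genotypes. Likeness was the root mean square distance between centred log2 values over the 4 arrays, among the 9969 genes at or above the median level. Nearest to Igf1 were Ak3 (distance 0.03), the neutrophil protease gene Prtn3 (0.05) and Zbtb18 (0.05). For Igf1r they were B430306N03Rik (0.03), Zswim6 (0.03) and the semaphorin gene Sema4a (0.06). For Igfbp7 they were the annexin gene Anxa3 (0.05), the lysophosphatidic acid receptor gene Lpar6 (0.06) and 2010016I18Rik (0.06). With 4 arrays such likeness is a description only. Among these members, Igf1 and Igf1r lay 0.14 apart on this measure, Igf1 and Igfbp7 0.19, and Igf1r and Igfbp7 0.21. The nearest genes were picked as the closest of 9969, so their smaller distances cannot be compared with those of the members.

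Summed marker levels of monocytes and macrophages, of neutrophils and of megakaryocytes lay lower on both Hes1-null arrays, as did Igf1, Igf1r and Igfbp7. In whole leukemic marrow, fewer cells of a type and less RNA per cell cannot be told apart. Nor can leukemic and other cells as the source of a marker. Counts of markers at an unadjusted p under 0.05 by limma are read against 4.78% of all genes lower and 3.51% higher. None of the lists below but that of megakaryocyte and platelet markers and that of immediate early genes went in a single direction. Of 13 measured monocyte and macrophage markers, 6 were lower and 0 higher at that level, and 1, Vcam1, also passed over all genes. On both Hes1-null arrays 8 of them lay below both wild-type arrays, 1 (Cd68) lay above and 4 overlapped. Over all genes 20.6% lay below and 17.4% above. Their log2 summed intensity was 12.8 to 12.9 in wild type and 12.3 to 12.4 in Hes1-null marrow, and on average 44.6% of it was Cd68. Of 14 neutrophil markers, 6 were lower and 0 higher at that level, 1 of them (Ltf) also over all genes. By array, 9 lay below both wild-type arrays, 2 lay above and 3 overlapped. Those above were Mmp8 (0.95 ± 0.40) and Ctsg (0.28 ± 0.16). Summed levels were 15.3 to 15.5 in wild type and 14.6 on both Hes1-null arrays. Of 7 megakaryocyte and platelet markers, 5 were lower and 0 higher, with summed levels of 10.2 to 10.3 and 9.44 to 9.48. In these 3 lists the sums remained apart when the gene with the largest linear change (Csf1r, Elane and Itgb3) was left out.

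Stromal and endothelial markers had mostly negative differences, 13 of 15, with a median of -0.295. At that level 4 were lower and 1 was higher. On both Hes1-null arrays 8 of them lay below both wild-type arrays, 1 lay above and 6 overlapped. Over all genes 20.6% lay below and 17.4% above. Their summed level was 11.5 to 11.7 in wild type and 10.7 to 11.0 in Hes1-null marrow, but nearly all of that gap came from Lpl, the lipoprotein lipase gene (-2.73 ± 0.35). Without Lpl the sums overlapped, at 10.7 to 10.8 in wild type and 10.6 to 10.8 in Hes1-null marrow. Cxcl12, Sparc and the endothelial receptor gene Kdr were the other markers lower at that level (-0.87 ± 0.15, -0.99 ± 0.15 and -0.54 ± 0.13). Pdgfrb, a receptor gene of perivascular cells, was the one that lay higher (0.80 ± 0.27). The collagen genes Col1a1, Col1a2 and Col3a1 differed by -0.15 ± 0.17, -0.25 ± 0.16 and -0.14 ± 0.14.

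Erythroid markers overlapped in their summed level (8.90 to 9.14 against 8.27 to 9.09), with 1 of 6 lower. Of 9 B and T cell markers, 1 was lower at an unadjusted p under 0.05. On both Hes1-null arrays 5 of them lay below both wild-type arrays, 1 lay above and 3 overlapped, with a median difference of -0.32. Their summed level (10.4 against 10.1 to 10.8) overlapped, and on average 70.3% of it was Cd79b. Immediate early genes, which also respond to sample handling, were higher: 10 of 13 at an unadjusted p under 0.05 and 1, Jun, over all genes by limma. Their summed levels were 12.0 to 12.2 in wild type and 13.5 to 14.2 in Hes1-null marrow. No marker was listed at 0. The part of these cell types and of sample handling in the differences of the 9 genes was not tested.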

How the data were processed

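The submitters' processing notes name RMA and Affymetrix Expression Console for the deposited intensities, which are on a linear scale. Versions are not given in the sources used here, nor is the build behind the probe annotation. All 4 arrays were used, 1 per sample, and log2 was taken with nothing added. Of 35556 probe sets, 21789 carry 1 gene symbol. The brightest probe set by mean over the 4 arrays stood for a gene (19938 genes), with no filter on dim ones. The test was that of limma 3.58.1 under R 4.3.3 (intensity trend, genotype as the only term, two-sided, Benjamini-Hochberg over all genes, threshold 0.05). The number of arrays limits the precision: the median SE was 0.17. The fit was tested on simulated data.

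The genes, lists, motifs and gene pairs were chosen with earlier results of these data known. Named are the 9 genes, list genes with an unadjusted p under 0.05, up to 2 genes per list by smallest p, and the 3 nearest genes in profile. Beyond this rule, Xist, other receptors, Gab2, the Akt and Foxo genes and the remaining binding proteins were added after their values were seen. Cell type markers are given by counts with examples. Same-numbered replicates deviated together only weakly (r = 0.05 across genes), and no label says what a shared number means, so samples were not paired. Alternatives covered a block, scaling, filters on level, moderation, array weights, probe set choice, an offset and leaving out each array. Promoter windows are from RefSeq, GRCm38.p6.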

Additional observations from a re-analysis of the deposited data

How the results depend on the processing

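Of 9 genes, 0 were called in each alternative except without Hes1-null replicate 1, where Igfbp7 was called (range 0 to 1 with each array left out). With the replicate number as a block, 0 of 9 were called and 89 genes in all, against 29 without it. The count over all genes was 46 after repeated quantile normalization, 45 with array weights, 17 and 5 when only genes above the 25th percentile or the median of level were kept, and 6 to 999 with each array left out (6 when wild-type replicate 2 was absent, 15 and 999 when Hes1-null replicate 2 or 1 was); the cause was not tested. With each array left out, Insr ran from -0.12 to 0.14, Igf2r from -0.040 to 0.86 and Irs2 from -0.29 to 0.94, so these changed sign. Igf1, Igf1r, Irs1, Grb10, Igfbp4 and Igfbp7 kept their sign in every alternative in which they were tested. The filters removed Irs1 and Grb10, and that at the median Igf1. With 2 arrays per genotype, intervals are wide: that of Insr spans -0.43 to 0.45.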

Other observations

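Several genes of the pathway parted the 2 Hes1-null arrays in the way Irs2 did. They were singled out after their values were seen and belong to no comparison. On Hes1-null replicates 1 and 2, Socs3, a feedback inhibitor of cytokine and insulin signalling, lay at 6.47 and 8.03. Sesn2, a stress gene that restrains mTOR, lay at 7.42 and 8.62, Ddit4, with a like role, at 8.02 and 9.29, and Gab2 at 9.60 and 10.64. The wild-type arrays differed by 0.22 or less for each of these 4 genes, against 1.04 or more between the Hes1-null arrays.

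Nedd4, the gene of a ubiquitin ligase that binds Grb10, differed more between replicate numbers than between genotypes. It lay at 9.11 and 9.80 on the replicate 1 arrays of wild type and Hes1-null and at 7.51 and 8.04 on the replicate 2 arrays. The gap within a genotype was 1.60 in wild type and 1.76 in Hes1-null. Within a replicate number, Hes1-null was higher by 0.69 and 0.54, and the unpaired difference was 0.62 ± 0.74. Nedd4 was singled out after its values were seen. Across all genes the same-numbered arrays deviated together only weakly (r = 0.05).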
